A study of Mus musculus with 6 samples.

Results

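The nuclear genes of the mitochondrial respiratory chain and ATP synthase were examined in lists of accessible chromatin from 3 subsets of mouse helper T cells. Protein-coding genes outside the mitochondrial genome were taken whose symbols begin with Nduf, Sdha to Sdhd, Uqcr, Cox4 to Cox8 or Atp5. The rule found 98 gene records with 97 symbols among 21938 protein-coding nuclear genes of the GENCODE M21 basic set on the mm10 assembly. A second Atp5o record (ENSMUSG00000116933) accounts for the difference between records and symbols. By their symbols, 38 records belong to complex I, 8 to complex I assembly, 4 to complex II, 4 to complex II assembly, 8 to complex III, 18 to complex IV and 17 to complex V, and Atp5s, named as a coupling factor, was kept apart.

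The respiratory chain sits in the inner mitochondrial membrane. Complex I (NADH dehydrogenase) and complex II (succinate dehydrogenase) feed electrons to ubiquinone, complex III (cytochrome bc1) passes them to cytochrome c, and complex IV (cytochrome c oxidase) hands them to oxygen, while complex V (ATP synthase) uses the resulting proton gradient to make ATP. Most of the subunits are encoded in the nucleus and a few in the mitochondrial genome, so the nuclear genes have to be expressed together. The transcription factors NRF1, GABP (an ETS factor also called NRF-2), YY1 and ERRα are known to bind many of these promoters. Activated T cells raise both glycolysis and mitochondrial respiration as they grow and divide.

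The libraries came from wild-type C57BL6/J mice, whose naive CD4+CD62L+ T cells were activated through CD3 and CD28 and cultured for 5 days. Th9 cells received IL-4, IL-2 and TGF-β1 with anti-IFN-γ, Th2 cells received IL-4 and IL-2 with anti-IFN-γ, and Th17 cells received IL-6, TGF-β1, IL-23 and IL-1β with antibodies to IFN-γ, IL-4 and IL-2. Accessible DNA was tagged with the Tn5 transposase (ATAC-seq). Each subset had 2 libraries, numbered 1 and 3. The labels give the spleen as the tissue and do not say that the libraries came from separate animals, so p-values measure only the spread between these libraries.

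Each library had its own list of 100317 to 142213 peaks, whose lowest fold enrichment over background lay between 1.71 and 2.11. The background coverage recovered from the lists was 5.65 fragments in Th9 replicate 1 and 11.2 to 17.7 in the other libraries, so that Th9 replicate 1 was the shallowest. Cd3e, Cd3d, Cd3g and Cd28 had promoter peaks in all 6 libraries, Cd4 in 4, Il9 and Il4 in the Th9 and Th2 libraries, Il13 in the Th2 libraries, and Il17f and Il23r in the Th17 libraries. Il17a was called in both Th17 libraries and in Th2 replicate 3. Gata3 was called in all 6. The B-cell genes Ms4a1 and Cd79a, the myeloid genes Lyz2, Csf1r and Itgam, and Ncr1 and Cd8a had no promoter peak in any library, and Cd8b1 and the erythroid gene Hbb-bt were called in all 6. A gene was called in a library when a peak overlapped a window that opens 1000 bp before any annotated start and closes 100 bp after it. The percentile is the rank of the peak's fold enrichment among the peaks of its own list, from 0 for the weakest to 100 for the strongest. Where several peaks met the window, the one with the highest fold was taken. A peak list does not separate the share of cells with an open promoter from the degree of opening in each cell.

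A promoter peak was present in all 6 libraries for 90 of the 98 records, against 12873 of 21938 genes, or 58.7%. In each library the 90 genes had 90 distinct peaks, and each had a single peak in its window. The peak covered an annotated start of the gene in all 6 libraries for 89 of the 90, the exception being Atp5f1, a subunit of the ATP synthase stalk. Its peak covered the annotated start in 1 library and the start of Wdr77 in all 6. When at least 200 bp had to overlap the window, Atp5f1 was called in 0 libraries, so its call rested on a small overlap. All 8 records of complex III and all 4 of complex II were called everywhere, as were 37 of 38 records of complex I, 8 of 8 for its assembly factors, 3 of 4 assembly factors of complex II, and 16 of 17 of complex V. Complex IV had the lowest share, with 13 of 18. Its 5 missing members were all isoforms restricted to particular tissues.

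**Figure D1:**
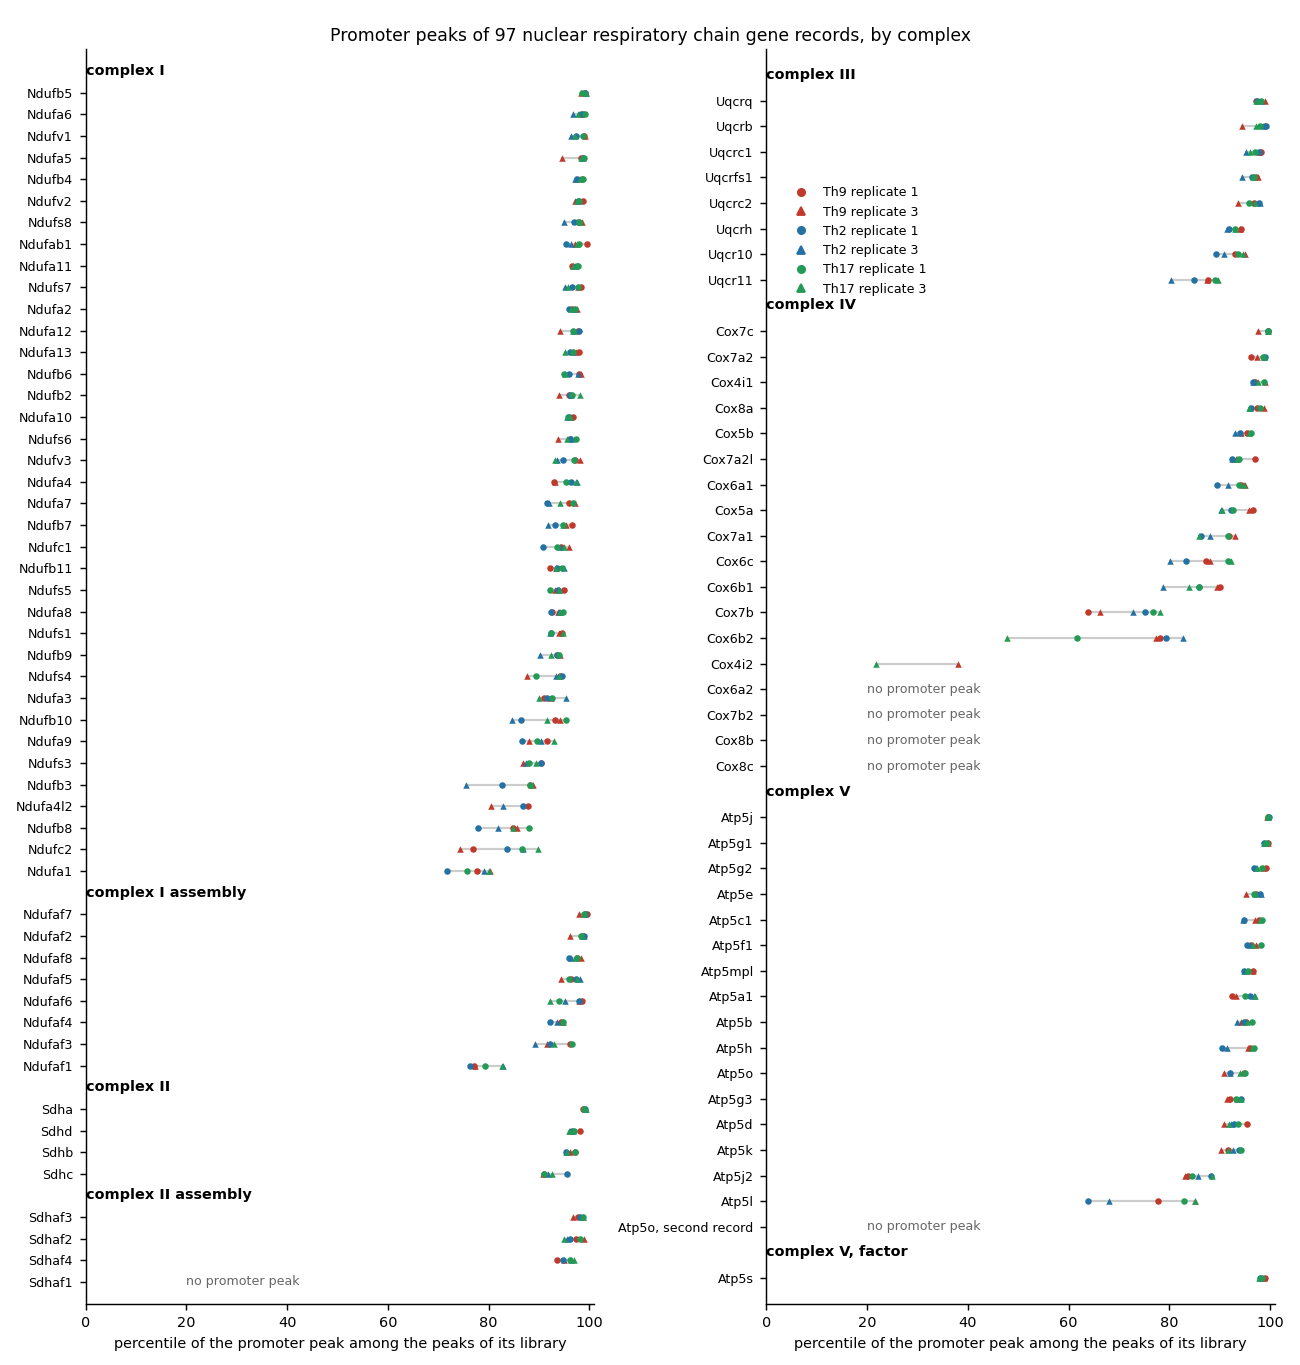
Percentile of the promoter peak (horizontal axis, 0 to 100) for 97 of the 98 gene records, grouped by complex and sorted by the mean; circles are replicate 1 and triangles replicate 3, coloured by subset, and grey lines span the libraries. Most points lie above 90, while Cox6b2, Cox7b, Atp5l and Ndufa1 form the low end of those called in all 6 libraries.

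The promoter peaks of the 90 genes ranked high in every list. Their median percentile was 96.4 and 95.1 in the Th9 libraries, 95.3 and 95.0 in the Th2 libraries and 96.1 and 95.4 in the Th17 libraries. The median over all 12873 called genes lay lower in each library, between 92.3 and 94.2, and the gap was 2.03 to 2.75 percentile points. The peaks were also narrower than those of the genes at large. Their median width ran from 1058 bp in Th9 replicate 1 to 1441.5 bp in Th2 replicate 3, and the median of members minus that of all called genes was -259.5 to -171 bp. Both differences kept their sign in every library under 8 other peak filters and windows. Of the 90 genes, 49 (54.4%) had a mean percentile above 95 and 15 (16.7%) one below 90, against 38.0% and 37.1% of all called genes. Ranked only among promoter peaks, the members' medians fell between 62.0 and 66.0, where the middle of all genes is 50 by construction.

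**Figure D2:**
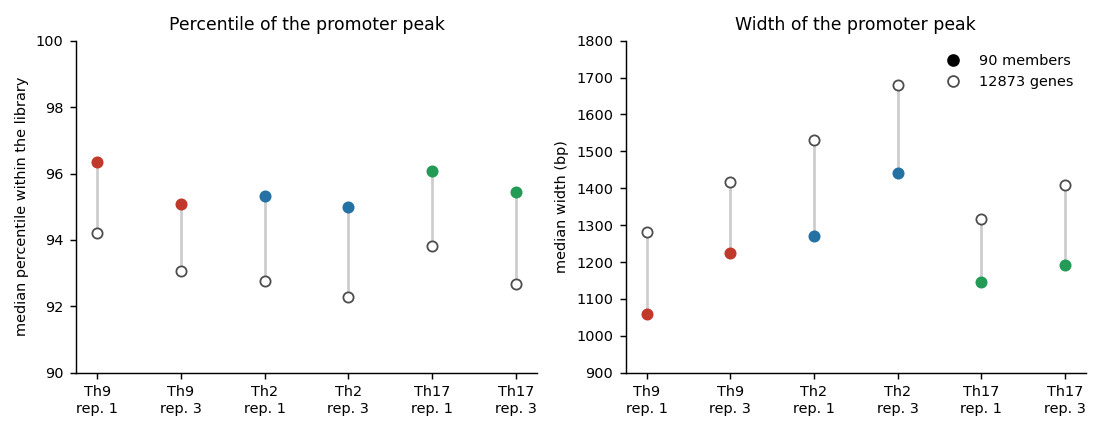
Median percentile (left) and median width in bp (right) of promoter peaks in each of 6 libraries, for 90 members (filled, coloured by subset) and 12873 genes with a promoter peak in all libraries (open); both vertical axes start above 0. The members' median is the higher one for the percentile and the lower one for the width in all 6 libraries.

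The complexes differed little in these medians, apart from complex IV. The median of the members' mean percentile was 95.5 for complex I, 96.3 for its assembly factors, 96.5 for complex II, 96.9 for complex II assembly, 96.5 for complex III and 95.0 for complex V. Complex IV had the lowest median, 93.2, and the narrowest median width, 1035 bp. Complex I assembly had the widest, 1497 bp. These are descriptions of small groups, the smallest with 3 called genes, and no test was made between them.

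The core subunits named here had a promoter peak in all libraries, though not always above the median of all called genes. In complex I, Ndufv1, which binds NADH and the flavin, was at 99.0 and 99.1 in Th9, at 97.3 and 96.3 in Th2 and in Th17 at 98.7 and 97.2. Ndufs1, the largest iron-sulfur subunit, lay lower, at 94.5 and 94.0, 92.3 and 92.2, and 92.5 and 94.8 in the same order, under a peak of 2003 bp on average that also covers the start of the translation elongation factor gene Eef1b2. Ndufs1 was therefore below Ndufv1 in each library. In both Th2 libraries and in Th17 replicate 1, Ndufs1 was also below the median of all called genes (92.8, 92.3 and 93.8). In complex II, Sdha, the flavoprotein that oxidises succinate, was among the highest of all members, at 98.7 and 99.2, 99.2 and 99.2, and 99.0 and 99.3. Its peak had nearly the same width in each library, from 1054 to 1152 bp. Sdhb, the iron-sulfur subunit, lay between 95.4 and 97.2.

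In complex III, Uqcrc1, a core protein, lay between 95.1 and 98.2, and Uqcrfs1, the Rieske iron-sulfur protein, between 94.4 and 97.7. Cox4i1 and Cox5b, subunits of complex IV, spanned 96.6 to 98.9 and 93.1 to 96.2. In complex V, Atp5b, the catalytic β subunit, spanned 93.4 to 96.3. Atp5a1, the α subunit, was at 92.5 and 93.3 in Th9, at 96.0 and 96.9 in Th2 and in Th17 at 95.0 and 97.1, so that both Th9 values lay below all others. In Th9 replicate 1 Atp5a1 was below the median of all called genes, 94.2. The difference of Th9 and Th2 was -3.56 points (SE 1.13) and did not pass the threshold in limma (adjusted p = 0.203).

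At the high end, Atp5j, which encodes coupling factor 6 of the ATP synthase stalk, had the highest mean percentile of all members, 99.6, and lay at 99.6 and 99.5 in Th9, at 99.8 and 99.6 in Th2 and in Th17 at 99.7 and 99.7. All 6 values lay within the top percentile of their lists. Its peak averaged 3244 bp, the widest of complex V, and ran over the start of Gabpa, which encodes the DNA-binding subunit of GABP and is transcribed from the opposite strand. Both genes therefore had the same peak and the same values. Cox7c, a small subunit of complex IV, followed with a mean of 99.3, at 97.6 in Th9 replicate 3 and 99.6 to 99.7 in the other libraries. Atp5g1, an isoform of the c subunit that forms the rotor ring, averaged 99.2, and Ndufb5, a subunit of the membrane arm, 99.0. The highest assembly factors were Ndufaf7, a methyltransferase of complex I assembly, with 98.9, and Sdhaf3 with 98.2, and Atp5s averaged 98.4. Uqcrq led complex III with 97.9. The widest peak of any member called in all libraries belonged to Uqcrh, the hinge protein of complex III, with a mean of 3756 bp and 2327 bp in Th9 replicate 1 against 3520 to 4644 bp elsewhere. That peak also covered the start of Lrrc41. The widest peaks of the other groups averaged 2657 bp at Ndufa13, 2668 bp at Ndufaf4, 2095 bp at Cox7a2l (a supercomplex factor), 1494 bp at Sdhb and 1480 bp at Sdhaf3.

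At the low end, Cox7b, a widely expressed subunit of complex IV on the X chromosome, was at 63.9 and 66.2 in Th9, at 75.3 and 72.8 in Th2 and in Th17 at 76.9 and 78.1. The Th9 values were below all others, with a difference from Th17 of -12.4 points (SE 4.96, limma adjusted p = 0.437). Its peak was 413 to 1024 bp wide. Atp5l, the g subunit of ATP synthase, was at 77.8 and 85.2 in Th9, at 63.9 and 68.0 in Th2 and in Th17 at 82.8 and 85.2, with both Th2 values lowest. Ndufa1, an X-linked accessory subunit needed for complex I, lay between 71.8 and 80.3, and Ndufaf1, a complex I assembly factor, between 76.3 and 82.8. The lowest of complex III was Uqcr11, from 80.2 to 89.7, of complex II Sdhc, from 90.8 to 95.6, and of complex II assembly Sdhaf4, from 93.6 to 96.9. The 3 members on the X chromosome were Cox7b, Ndufa1 and Ndufb11, and the last averaged 93.7.

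Promoter sequences were available in the RefSeq table (GRCm38.p6) for 80 of the 98 records, in 85 windows of 300 bases, 250 before and 50 after a start. Shown first are 4 promoters from both ends of the percentile order, Atp5j and Cox7c at the top and Atp5l and Cox7b near the bottom. The first 280 bases of each window are printed 5′ to 3′ on the gene's strand. Capitals mark the words searched on both strands, which were CGCATGCG for NRF1, CCGGAAG for ETS factors such as GABP, AAGATGGCG for YY1, TCAAGGTCA for ERRα, CCAAT for NF-Y and TATAAA for the TATA-binding protein.

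Atp5j, chr16:84834947-84835226, minus strand: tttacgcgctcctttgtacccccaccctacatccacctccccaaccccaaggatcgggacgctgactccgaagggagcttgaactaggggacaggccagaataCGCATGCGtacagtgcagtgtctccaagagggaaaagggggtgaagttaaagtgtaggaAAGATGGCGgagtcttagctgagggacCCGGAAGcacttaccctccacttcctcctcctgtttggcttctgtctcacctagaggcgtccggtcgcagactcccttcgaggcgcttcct
Cox7c, chr13:86046766-86047045, minus strand: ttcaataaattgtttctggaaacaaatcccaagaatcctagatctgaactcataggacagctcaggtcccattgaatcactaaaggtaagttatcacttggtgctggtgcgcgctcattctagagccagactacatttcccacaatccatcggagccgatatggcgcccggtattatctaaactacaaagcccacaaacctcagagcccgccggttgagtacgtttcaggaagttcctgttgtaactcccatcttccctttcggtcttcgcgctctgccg
Atp5l, chr9:44920713-44920992, minus strand: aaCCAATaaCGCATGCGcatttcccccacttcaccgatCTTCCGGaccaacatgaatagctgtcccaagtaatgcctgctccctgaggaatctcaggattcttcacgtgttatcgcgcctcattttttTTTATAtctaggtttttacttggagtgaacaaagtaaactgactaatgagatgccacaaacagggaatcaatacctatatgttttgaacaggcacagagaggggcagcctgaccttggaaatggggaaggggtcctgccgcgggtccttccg
Cox7b, chrX:106015450-106015729, plus strand: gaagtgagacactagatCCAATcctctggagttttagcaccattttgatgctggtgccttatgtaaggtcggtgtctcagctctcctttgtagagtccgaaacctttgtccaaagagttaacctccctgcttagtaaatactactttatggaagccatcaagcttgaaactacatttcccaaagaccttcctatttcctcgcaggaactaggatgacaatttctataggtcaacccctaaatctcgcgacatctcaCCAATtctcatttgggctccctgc

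The printed Atp5j window held one match each for NRF1, YY1 and ETS, in that order towards the start. The table gives a second Atp5j window, farther upstream at chr16:84835576-84835875, which contains the outermost annotated start of the gene (84835625) and held no match to any of the words. The Cox7c promoter, at the same end of the order, held no match to any of the words. The low-ranking Atp5l promoter held matches for NRF1, ETS, NF-Y and the TATA-binding protein, and its full window held a second ETS match. The Cox7b promoter held only CCAAT, at 2 places. A word was therefore present or absent at either end of the order.

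The NRF1 word was present in 12.9% of the 85 member windows and in 2.60% of 20529 windows of all genes. The ETS word was in 24.7% against 11.8%, the YY1 word in 9.41% against 1.90% and the ERRα word in 2.35% (2 windows, of Atp5g3 and Sdhd) against 0.341%. At least one of the NRF1, ETS and YY1 words was in 38.8% of member windows against 15.3%. Among genes with a peak in all 6 libraries the shares were 39.0% for members against 22.1%. The CCAAT word was about as frequent in members (42.4%) as in all genes (38.0%), and the TATAAA word was in 10.6% against 12.3%. Where the gene was called in all 6 libraries, TATAAA was in 8.54% of member windows against 7.01%, so its direction was reversed. There NRF1 was in 13.4% against 3.71%, ETS in 24.4% against 17.1% and YY1 in 9.76% against 2.83%. Within the member windows no match shared a base with a match of another word. Among members called in all libraries, the median percentile was 94.1 for the 11 with an NRF1 word and 95.5 for the 66 without, 95.3 for the 20 with an ETS word and 95.5 for the 57 without, and 95.0 for the 8 with a YY1 word and 95.5 for the 69 without. For each of these 3 words the median of the members that held it was not above that of the members without it, and most member windows held none of the 3. No test was made on these shares, since matches to short words are descriptions and not binding sites.

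**Figure D3:**
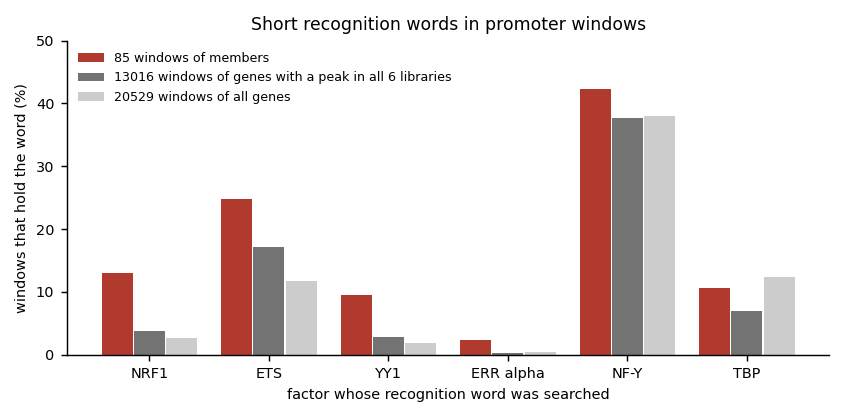
Share of promoter windows (vertical axis, %) that hold the recognition word of each factor on either strand, for 85 windows of members, 13016 windows of genes with a promoter peak in all 6 libraries and 20529 windows of all genes. The largest ratios between members and all genes are at NRF1, YY1 and ERR alpha, while the NF-Y word is at 42.4% against 38.0%. The TBP word is at 10.6% against 12.3%, and at 7.01% in genes with a peak in all 6 libraries.

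Several subunits exist as a widely expressed form and a form restricted to muscle, testis, lung or other tissues. Of 8 tissue-restricted isoforms, 2 had a promoter peak in all libraries, whereas all 7 widely expressed counterparts did. Cox6a2, the heart and skeletal muscle form, Cox8b, another muscle form, and Cox7b2 and Cox8c, the testis forms, were not called in any library. Their nearest peaks lay 6043 to 6513 bp from the start of Cox6a2, 2781 to 8151 bp from that of Cox8b, 2183 to 7910 bp from that of Cox7b2 and 1794 to 13186 bp from that of Cox8c. The counterparts Cox6a1 and Cox8a were at 89.5 to 95.1 and 95.9 to 98.8. Cox4i2, the lung and oxygen-responsive form, was called at the low percentiles of 38.1 in Th9 replicate 3 and 21.9 in Th17 replicate 3, and in neither Th2 library, while Cox4i1 was above 96 in all 6. Cox7a1, the muscle form, had a peak in every list, at 91.8 and 93.0 in Th9, at 86.3 and 88.0 in Th2 and in Th17 at 91.7 and 85.9, each below Cox7a2, which lay between 96.3 and 98.9. In each pair the restricted form either had no peak or ranked below its counterpart in every library, apart from Cox6b2.

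**Figure D4:**
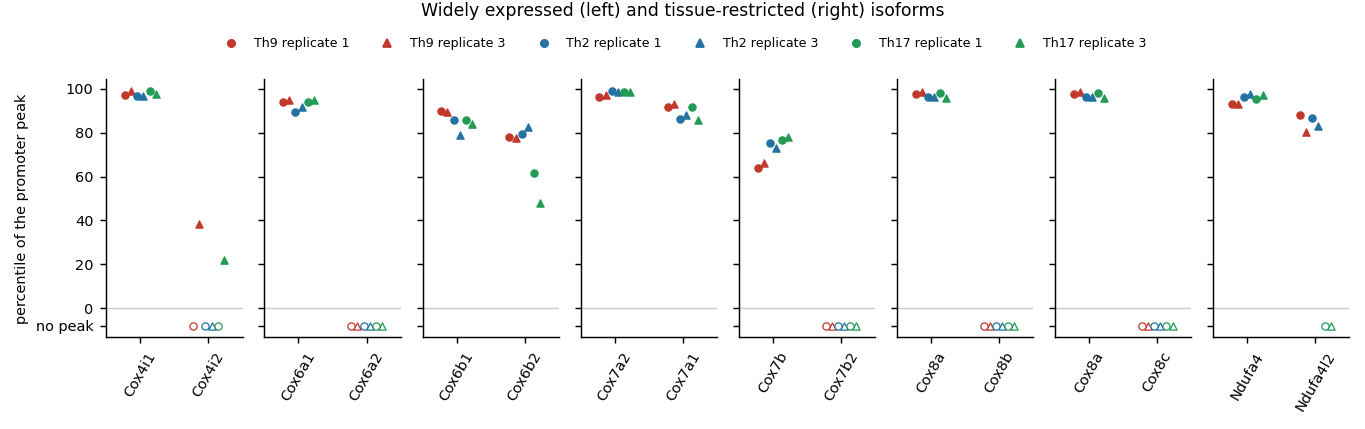
Percentile of the promoter peak (vertical axis) in each library for widely expressed isoforms and their tissue-restricted counterparts, with circles for replicate 1, triangles for replicate 3 and open symbols for libraries without a peak. Of the restricted forms, only Cox6b2 and Cox7a1 have a peak in all 6 libraries, and Ndufa4l2 has none in the 2 Th17 libraries.

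Cox6b2, the testis form of a subunit that faces the intermembrane space, varied most of all members. It was at 78.2 and 77.4 in Th9, at 79.4 and 82.8 in Th2 and in Th17 at 61.6 and 47.9. Both Th17 values were the lowest, and no value of another subset overlapped them. The difference of Th2 and Th17 was 26.4 points (SE 6.20, limma adjusted p = 0.223) and that of Th9 and Th17 23.1 points (SE 6.20, limma adjusted p = 0.331), so that neither passed the threshold of 0.05. In Th2 replicate 3 it exceeded its counterpart Cox6b1 (82.8 against 78.8). Cox6b1 had the narrowest peak of the members called in all libraries, with a mean of 544 bp, against 1493 bp at Cox6b2. With peaks of at least 4-fold enrichment, Cox6b2 was called in 1 library and Cox7b in none.

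The promoter table held both members of 4 isoform pairs, which differed in CpG content in both directions. CpG dinucleotides, given as the observed number over that expected from base composition in the 300-base window, had a median ratio of 0.829 in member windows and 0.587 in those of all genes, or 0.833 against 0.754 where the gene was called in all libraries. The pairs Cox8a and Cox8b, Cox7a2 and Cox7a1, and Cox6b1 and Cox6b2 are printed, in which the widely expressed form had the higher ratio. In the pair of Cox7b and Cox7b2 it had the lower one.

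Cox8a, chr19:7217587-7217866, minus strand: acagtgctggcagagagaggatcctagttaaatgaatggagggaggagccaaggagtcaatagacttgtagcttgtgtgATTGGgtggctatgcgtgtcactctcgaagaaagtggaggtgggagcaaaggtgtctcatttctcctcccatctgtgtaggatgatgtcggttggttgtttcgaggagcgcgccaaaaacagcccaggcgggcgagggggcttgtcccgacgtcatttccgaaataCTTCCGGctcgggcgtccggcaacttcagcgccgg
Cox8b, chr7:140900417-140900696, minus strand: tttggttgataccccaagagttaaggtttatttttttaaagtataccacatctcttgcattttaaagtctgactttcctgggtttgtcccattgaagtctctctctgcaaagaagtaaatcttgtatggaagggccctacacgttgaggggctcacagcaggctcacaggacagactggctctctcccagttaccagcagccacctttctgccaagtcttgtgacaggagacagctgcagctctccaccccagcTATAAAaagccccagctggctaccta
Cox7a2, chr9:79759824-79760103, minus strand: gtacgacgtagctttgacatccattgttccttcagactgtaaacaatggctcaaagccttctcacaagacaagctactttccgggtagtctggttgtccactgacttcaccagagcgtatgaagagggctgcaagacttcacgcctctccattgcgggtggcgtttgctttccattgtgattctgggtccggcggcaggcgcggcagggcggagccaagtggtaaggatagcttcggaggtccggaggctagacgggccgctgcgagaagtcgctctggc
Cox7a1, chr7:30183921-30184200, plus strand: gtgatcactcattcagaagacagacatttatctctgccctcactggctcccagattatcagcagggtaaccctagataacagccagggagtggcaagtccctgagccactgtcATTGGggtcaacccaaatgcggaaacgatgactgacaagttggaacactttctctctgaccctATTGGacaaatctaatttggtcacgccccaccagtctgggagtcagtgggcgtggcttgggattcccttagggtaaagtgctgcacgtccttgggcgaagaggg
Cox6b1, chr7:30626085-30626364, minus strand: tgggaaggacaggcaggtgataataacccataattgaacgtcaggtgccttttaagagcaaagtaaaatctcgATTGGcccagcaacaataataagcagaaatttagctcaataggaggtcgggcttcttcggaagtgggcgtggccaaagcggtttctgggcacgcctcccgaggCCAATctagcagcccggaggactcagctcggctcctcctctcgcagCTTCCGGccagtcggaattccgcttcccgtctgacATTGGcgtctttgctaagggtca
Cox6b2, chr7:4753065-4753344, minus strand: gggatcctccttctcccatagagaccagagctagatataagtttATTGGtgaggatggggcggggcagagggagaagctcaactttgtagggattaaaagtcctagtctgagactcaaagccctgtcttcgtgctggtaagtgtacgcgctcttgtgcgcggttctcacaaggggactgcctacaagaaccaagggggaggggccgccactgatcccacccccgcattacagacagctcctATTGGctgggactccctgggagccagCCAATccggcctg

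The ratio was 0.842 at Cox8a and 0.115 at Cox8b, 0.833 at Cox7a2 and 0.333 at Cox7a1, and 0.807 at Cox6b1 and 0.432 at Cox6b2. The restricted form was lower in each of these 3 pairs. The remaining pair went the other way, with 0.368 at the widely expressed Cox7b and 0.564 at the testis form Cox7b2, which had no promoter peak in any library. Cox8b alone among those printed held TATAAA without any other word, and its window had no peak in any library.

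The calls of Ndufa4l2 and Sdhaf1 also turned on where the start or the window was placed. Ndufa4l2, a relative of Ndufa4 that is induced by hypoxia, was called at 87.8 and 80.5 in Th9 and 86.8 and 82.8 in Th2, but not in Th17. It was the only member, 1 of 98, called in both libraries of one subset and not in both of another, a pattern seen in 7.27% of all genes. A peak upstream of the gene was present in all libraries. It ended 1042 and 1259 bp before the start in the Th17 libraries, just outside the window, and 931 bp before it in Th9 replicate 3, and in both Th2 libraries it ran on over the start to a width of 4656 and 4723 bp. In Th9 replicate 1 the upstream peak reached the window and gave the percentile, and a weaker separate peak of 2.12-fold covered the start. With a window of 2000 bp on either side the gene was called in all 6 libraries. Ndufa4, which is named for complex I and has since been assigned to complex IV, was at 93.0 and 93.1 in Th9, at 96.3 and 97.6 in Th2 and in Th17 at 95.3 and 97.4.

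Sdhaf1, a factor that helps to insert iron-sulfur clusters into Sdhb, had no peak in its window in any library. A peak lay 428 to 533 bp downstream of the annotated start, inside the gene, at percentiles of 90.4 to 95.4 in all 6 libraries, and covered the start of E130208F15Rik. The RefSeq window of Sdhaf1 (chr7:30322326-30322625, minus strand) fell within that peak. Over the RefSeq windows, which were examined after the results above, 78 of the 80 listed members had a peak in all 6 libraries. Among all genes the share was 58.1% of 16855. Cox7b2 and Cox8b had a peak in none. The RefSeq table listed no window for Cox4i2, Cox6a2, Cox8c, Ndufa4l2 or the second Atp5o record. None of these had been called in all 6 libraries, so 78 of 80 does not cover the same genes as 90 of 98. Atp5f1, whose call above rested on a small overlap, had a peak over its RefSeq window in all 6. In its annotated window the second Atp5o record had no peak in any library, while Atp5o itself was called at 90.9 to 95.0. The latter is the subunit that links the stalk to the catalytic head.

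Many of these genes share their promoter region with a neighbour. Of the 98 records, 28 (28.6%) had the start of another protein-coding gene within 1000 bp upstream on the opposite strand, against 9.01% of all genes. Among genes with a peak in all libraries the shares were 31.1% against 14.6%. The promoter peak covered the start of another gene in all 6 libraries for 31 members (34.4%), against 18.5% of all called genes. The partners included genes of related function, such as Mrpl36, a mitochondrial ribosomal protein gene, beside Ndufs6, Timm8b, of mitochondrial protein import, beside Sdhd, and Rps28, a ribosomal protein gene, beside Ndufa7. Others were Haus1 beside Atp5a1, Emc8 beside Cox4i1 and Ccdc127 beside Sdha. Of the 4 genes of complex II, 3 had such a partner, and of the 18 of complex IV only Cox4i1 had one. The median percentile was 96.7 for the 28 members with a partner and 95.4 for those without, and over all called genes 96.3 and 92.2. The order of the members did not hold in both of their parts. Among the 78 called structural subunits the medians were 94.9 with a partner and 95.4 without. Among the 12 called assembly and other factors they were 97.7 and 94.8. A peak over both starts cannot be told apart by gene.

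Differences between subsets were tested in limma on the percentiles of all 12873 genes with a promoter peak in every library. Of the 90 members, 0 passed an adjusted p of 0.05 in any comparison. For Th9 and Th2, 0% of all genes passed, and at an unadjusted p under 0.05, 20 members were higher in Th9 and 8 lower, against 14.2% and 5.12% of all genes. For Th9 and Th17, 0.0155% of all genes passed (2 genes, no member), and unadjusted, 4 members were higher in Th9 and 7 lower, against 7.26% and 3.43%. For Th2 and Th17, 0.0155% of all genes passed (2 genes), and unadjusted, 2 members were higher in Th2 and 12 lower, against 5.52% and 7.2%. The unadjusted counts leaned to lower percentiles in Th2 in both comparisons that involve it, for the members as for all genes. Each pair of comparisons shares the 2 libraries of a subset, so they are not independent.

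The sizes were small for most members. The median difference was 0.92 percentile points for Th9 minus Th2, -0.11 for Th9 minus Th17 and -0.84 for Th2 minus Th17, against 0.54, 0.37 and -0.13 over all genes. The signs of the members' medians were not stable. That of Th9 minus Th2 turned to -0.23 with peaks of a −log10 q of at least 5, and with a fold of at least 4 those of the other comparisons turned to 3.68 and 0.47. The medians of all genes moved with these filters, to -1.02 with the first and to 4.41 and 1.00 with the second. Without Th9 replicate 3 the median of Th9 minus Th17 was 0.16. The range over the 6 libraries had a median of 3.66 points for members and 5.15 for all genes, and 64 of the 90 varied by under 5 points. Of the 90, 9 varied by more than 10 points, against 25.7% of all genes. The percentile cannot exceed 100 and the members lie nearer to that limit than the genes at large, so these ranges are not compared at equal levels.

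**Figure D5:**
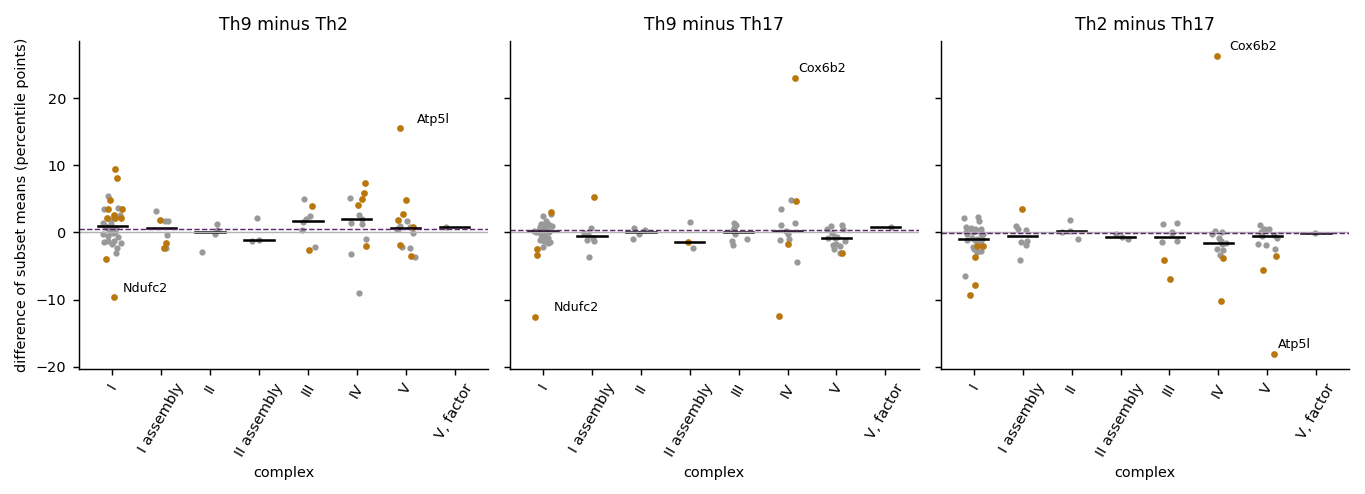
Difference of subset means in percentile points (vertical axis) for 90 members in each comparison, by complex; each point is a gene, orange-brown where the unadjusted limma p was under 0.05, with black bars for the median of the complex and a dashed line for the median of all genes. Cox6b2, Atp5l and Ndufc2 lie farthest from 0, and no member passed the adjusted threshold.

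The members with the lowest adjusted p were subunits of ATP synthase. Atp5h, the d subunit of the stalk, was at 96.1 and 95.6 in Th9, at 90.4 and 91.5 in Th2 and in Th17 at 96.8 and 96.4. Both Th2 values lay below all others, and the difference of Th2 and Th17 was -5.65 points (SE 1.13, limma adjusted p = 0.175). Atp5c1, the central γ subunit, was at 97.9 and 97.0, 94.9 and 94.6, and 98.3 and 98.1, again lowest in Th2, with a difference of -3.45 points from Th17 (SE 0.674, limma adjusted p = 0.175). Atp5l had the widest such gap, -18.1 points (SE 4.44, limma adjusted p = 0.238). The peaks of Atp5h and Atp5c1 also cover the starts of Kctd2 and Kin.

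Ndufb10 and Cox6c also had their lowest values in Th2. Ndufb10, a membrane-arm subunit of complex I, was at 93.2 and 94.2 in Th9, at 86.5 and 84.7 in Th2 and in Th17 at 95.4 and 91.5. Its difference of Th9 and Th2 was 8.07 points (SE 2.01, limma adjusted p = 0.197). Cox6c was at 87.2 and 88.0, 83.3 and 80.2, and 91.8 and 92.2, with the Th2 values lowest and a difference of -10.2 points from Th17 (SE 2.33, limma adjusted p = 0.214). Ndufc2, another complex I subunit, had its lowest values in Th9, at 76.8 and 74.3, while Th2 had 83.6 and 86.9 and Th17 had 86.6 and 89.7. The difference of Th9 and Th17 was -12.6 points (SE 3.10, limma adjusted p = 0.306). Ndufaf6, an assembly factor of complex I, was at 98.6 and 98.1 in Th9, at 98.0 and 95.1 in Th2 and in Th17 at 93.9 and 92.2, which gave the lowest adjusted p of the members for Th9 and Th17 (5.23 points higher in Th9, SE 1.16, limma adjusted p = 0.288). These members were named after their values were seen.

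Without Th9 replicate 1, the shallowest library, 4 members passed for Th9 and Th2 (Cox7c, Ndufa5, Ndufaf2 and Uqcrb) and 2 for Th9 and Th17 (Cox7c and Ndufa5), all lower in the remaining Th9 library. In that fit 457 of all genes (3.55%) passed for Th9 and Th2, 440 of them lower in Th9, and 245 (1.90%) for Th9 and Th17, 232 of them lower. The single Th9 library is there assumed to vary like the other groups. Ndufa5, a complex I subunit, was at 98.3 in Th9 replicate 1 and 94.7 in Th9 replicate 3, and at 98.3 to 98.9 in the other subsets. Its value in Th9 replicate 3 was thus the only one apart from the rest.

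By complex, the unadjusted counts were spread over the chain. Higher in Th9 than in Th2 were 9 of 37 genes of complex I, 4 of 13 of IV and 5 of 16 of V. In the same complexes 2, 1 and 2 were lower. Complex III had 1 of 8 higher and 1 lower, and complex I assembly 1 of 8 higher and 2 lower. The shares of all genes were 14.2% and 5.12%. For Th9 and Th17, complexes I, IV and V had 1, 2 and 0 higher in Th9 and 3, 2 and 1 lower. Complex I assembly had 1 higher and complex II assembly 1 lower, against 7.26% and 3.43% of all genes. For Th2 and Th17, 5 genes of complex I, 2 of complex III, 2 of complex IV and 3 of complex V were lower in Th2, and 1 of complex IV, Cox6b2, and 1 assembly factor of complex I, Ndufaf6, were higher, against 7.2% lower and 5.52% higher among all genes. In complex II no gene reached an unadjusted p of 0.05 in any comparison.

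The 42 genes listed as electron carriers, regulators and assembly factors outside the naming rule were all called in all 6 libraries, with a median percentile of 95.3, and 0 of 42 passed the adjusted threshold in any comparison. At an unadjusted p under 0.05, 6 were higher and 4 lower for Th9 and Th2, against 14.2% and 5.12% of all genes. The counts were 0 and 2 for Th9 and Th17, against 7.26% and 3.43%, and 1 and 3 for Th2 and Th17, against 5.52% and 7.2%. The cytochrome genes were far apart, since Cycs, the mobile carrier, lay between 98.8 and 99.9 and Cyc1, the haem subunit of complex III, between 70.0 and 85.9. Cyc1 was at 85.9 and 83.9 in Th9, at 70.0 and 71.8 in Th2 and in Th17 at 77.7 and 79.2. Among regulators, Tfb1m and Tfb2m, which encode mitochondrial rRNA methyltransferase and transcription factor, averaged 99.9 and 99.6, Yy1 98.2, Esrra 98.3, Tfam, the packaging factor of mitochondrial DNA, 95.8, and Nrf1 93.4. Ppargc1a, the coactivator PGC-1α, was the lowest at 79.4, with 63.0 in Th9 replicate 3 and 87.5 in Th9 replicate 1.

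Of 17 gene records of glycolysis all were called in all libraries, and their median percentile was 93.9. Their peaks had a median width of 1778 bp, against 1271 bp for the respiratory chain and 1476 bp over all called genes. For the 42 genes outside the naming rule it was 1404 bp, with 1249 bp for the 28 assembly factors and 1724 bp for the 12 regulators. None of the 17 passed the adjusted threshold in any comparison, and unadjusted, 1, 3 and 0 were higher and 0, 0 and 1 lower for Th9 minus Th2, Th9 minus Th17 and Th2 minus Th17, against 14.2%, 7.26% and 5.52% higher and 5.12%, 3.43% and 7.2% lower among all genes. Of 92 ribosomal protein gene records, 82 were called in all libraries, with a median percentile of 94.5. In Th9 and Th2, 35 of these 82 were higher in Th9 at an unadjusted p under 0.05 and 0 were lower, against 14.2% and 5.12% of all genes. In Th2 and Th17, 0 were higher and 31 lower in Th2, against 5.52% and 7.2%, and 0 passed the adjusted threshold in either comparison.

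Within the gene bodies, outside the promoter windows, peaks of the 6 libraries joined into 88 regions in 30 members. No exon of the gene was touched by 75 of these regions. Of these regions, 18 in 9 genes were called in all libraries and 59 were called in only some libraries of at least one subset, and gene-body regions of other genes were not examined for comparison. Of the others, 3 were called in both Th9 and both Th2 libraries and in neither Th17 library. These were an intronic region of Ndufs4 (chr13:114292472-114293602), at 82.7 and 71.1 in Th9 and 86.2 and 77.1 in Th2, an intronic region of Ndufa10 (chr1:92444316-92446125), at 46.6 and 53.9 in Th9 and 78.8 and 72.0 in Th2, and a region of Uqcrc2 that overlaps an exon (chr7:120644789-120645720), at 66.0 and 76.7 and at 80.9 and 81.4. Regions called in Th2 alone lay in introns of Sdhb, Cox7a2l and Atp5a1, those in Th17 alone in introns of Ndufa9 and Ndufaf2, and a region called in Th9 alone overlapped an exon of Uqcrc1. The long genes Ndufaf2 and Ndufs4 held 17 and 16 of the 88 regions. No test was made of these patterns, whose genes were named after their values were seen.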

How the data were processed

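ATAC-seq peak lists of 6 libraries from Th9, Th2 and Th17 cells, 2 each, were analysed. Per the labels and the study's methods, the authors trimmed reads with Trim Galore 0.4.3, aligned pairs to mm10 with bowtie2, removed duplicates with Picard, set aside mitochondrial reads and reads of low mapping quality, and called broad peaks for each library alone with MACS2 2.1.0, with no local background and no input. The deposited lists give each peak's fold enrichment, a linear ratio over a genome-wide background. They also hold the −log10 of p and of q, used here only for filters and to recover depth, as the authors deposited them. The deposited display score was not read.

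Folds were ranked within each list, since folds of lists of different depth are not comparable. Genes came from the GENCODE M21 basic set, and windows, overlaps of at least 1 bp and ranks were worked out with pandas 2.3.3 and numpy 2.4.6 (Python 3.11.15). Subset means were compared with limma 3.58.1 in R 4.3.3 (intensity trend, Benjamini-Hochberg adjustment over all genes tested, two-sided). The lists hold no read counts. Depth was recovered from flat peaks as fragments of background coverage, 5.65 to 17.7, which limits how weak a peak can be called. Code was tested on simulated data.

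The members and the lists of other genes were chosen with earlier results of these data known. Named genes were those without a peak in some library, the highest, lowest and widest of each complex, a core set and the isoform pairs, and others, such as Atp5g1, Ndufb11 and those of the subset comparisons, were named after their values were seen. Some single-gene results are not reported here. Promoter windows came from RefSeq (GRCm38.p6). Alternatives were stricter peak filters, lists of equal length, the top 20000 peaks, other windows, structural subunits only, other scalings, no trend, a replicate block and each library left out, and the RefSeq windows were added after the data had been seen.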

Additional observations from a re-analysis of the deposited data

How the results depend on the processing

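The number of members with a promoter peak in all libraries was 78 to 92 under the other filters and windows and 90 whichever library was left out. Across the 8 other peak filters and windows, 79.6% to 93.9% of members were called in all libraries, against 40.2% to 62.8% of all genes. The median width, 1271 bp, stayed between 1192 and 1310 bp. The median percentile, 95.5, moved by construction where fewer or other peaks were ranked, to 88.7 with a −log10 q of at least 5, 77.6 with a fold of at least 4, 94.5 with lists of equal length, 76.7 with the top 20000 peaks and 65.2 among promoter peaks alone. With a library left out it was 95.4 to 95.8. The count of members with calls in both replicates of one subset but not of another, 1, became 4 with the −log10 q filter, 7 with the fold filter, 8 with the top 20000 peaks, 3 when 200 bp had to overlap, 0 with 2000 bp on either side, and 1 to 2 with a library left out. The main count, 1 of 98, stood against 7.27% of all genes. The share of all genes with this pattern was not worked out under the other settings. The cause of these moves was not tested.

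Members past the adjusted threshold numbered 0 in each comparison under every scaling, filter and window. With a library left out they numbered 0 to 4 for Th9 and Th2, 0 to 2 for Th9 and Th17 and 0 for Th2 and Th17. All genes past it numbered 0, 2 and 2 as reported, and up to 132, 58 and 105 under other scalings and filters, the highest with quantile-normalised log2 folds. With the replicate number as a term (replicate block) 0 members passed in each comparison, and 0, 2 and 0 of all genes. The replicate numbers were not taken to pair the libraries, since the labels name no shared animal and the correlations of the replicate differences between subsets were 0.0976, 0.0577 and 0.0295.

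Depth limits what was not called, since the shallowest library needed a higher fold for a peak. A missing peak at Cox8b or Cox7b2 says only that none was detected at this depth, and 2 libraries per subset limit the comparisons.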
